A study of Oryza sativa Japonica Group with 74 samples.

Results

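The 150 rice genes described here were highest at the end of the night, when the lights were about to come on, in wild type grown in both long and short days. They were chosen from 37849 genes by their TPM, a level scaled for gene length and for library. A gene was a candidate if its mean TPM in wild type was highest at ZT24 (24 h after lights on, that is, at dawn) in both day lengths and reached at least 10 there in both, which 1214 genes met. The 150 kept had the largest swing over the day, taken as log2 of the highest over the lowest mean, each plus 1 TPM, in whichever day length the swing was smaller. This value ran from 7.78 to 2.23 with a median of 2.89. The last members were Os03g0751600 (2.24), Os06g0699700 (2.23) and Os01g0542700 (2.23), and the first genes left outside were Os05g0161200, Os09g0444900 and Os05g0419200, each at 2.22. Time of day in wild type therefore chose the genes and is given below as a description, with no test.

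Dawn is the time when a plant passes from living on stored starch to photosynthesis. In the plant circadian clock, MYB-like proteins made around dawn repress genes of the evening, and evening proteins in turn repress genes of the morning. ELF3, ELF4 and LUX form the Evening Complex, a repressor of transcription that acts in the evening and night, and phytochrome B is a receptor of red light. In rice both take part in the control of flowering by day length. The deposited files do not pair the identifiers of these genes with names, so each gene is given by its identifier, whose first digits after Os are its chromosome, and no function is stated for any member.

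RNA was sequenced from plants labelled as 21 days old and whole, grown with 14 h of light (long days, LD) or 10 h (short days, SD). Wild type (WT, japonica cultivar Nipponbare) was sampled at ZT24, ZT2, ZT6, ZT10, ZT14 and ZT18 in both day lengths. A mutant homozygous in both ELF3 genes (Oself3-1 -/- Oself3-2 -/-, here elf3-1 elf3-2) and a phytochrome B mutant (OsphyB-/-, here phyB) were sampled at ZT6, ZT14 and ZT18 in both, and a LUX mutant (OsLUX-/-, here lux) at ZT14 in SD alone. No mutant was sampled at dawn. The labels do not say whether a mutant line comes from 1 event or whether libraries of a group come from separate plants, so p-values measure the spread between these libraries, which may be technical.

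Libraries held 25.7 to 74.1 M counts (median 34.8 M). Of 74 libraries, 17 were left out of the main results because their values went against their labels or because the rule that chose the genes leaves them out. On a scale of 76 genes that set phyB apart at ZT18 (0 for the other genotypes, 1 for phyB), the 4 libraries labelled WT replicate 1 at ZT6 and ZT14 lay at 0.915 to 0.992, and those labelled phyB replicate 1 lay at -0.001 to 0. The members Os02g0460200 and Os04g0340300 are among the 76, and without them the 4 WT-labelled libraries lay at 0.906 to 0.992. On a scale of 26 genes for elf3-1 elf3-2, the same phyB-labelled libraries lay at 0.974 to 1.183. The 3 left out with an elf3-1 elf3-2 label lay at 0.258 to 0.479, under the kept range of that mutant (1.002 to 1.227). The kept WT range at ZT6 and ZT14, the times placed on this scale, was -0.003 to 0.512, but none of the 3 lay between the WT libraries of its own condition. They lay at 0.479 against 0.22 and 0.333 (ZT6 LD), 0.335 against 0.44 and 0.512 (ZT6 SD) and 0.258 against -0.003 and 0.017 (ZT14 SD). Libraries labelled WT replicate 3 at ZT24 SD, ZT24 LD and ZT2 SD and replicate 1 at ZT10 in both day lengths were nearer to another WT group than to their own, whereas replicate 3 at ZT2 LD did not stand apart. This left 3 libraries per group at ZT18 and in lux and 2 elsewhere. For each comparison the number of members that passed in a fit of all 74 libraries is given too. The mutated genes were still transcribed. Over all times, ELF3-1 stood at 29.8 to 67.4 TPM in elf3-1 elf3-2 and at 47.2 to 146 in WT. ELF3-2 stood at 10.7 to 62.8 and at 2.98 to 72.3, and PHYB at 20.6 to 49.9 in phyB and 16.6 to 89.2 in WT. These WT ranges span more times than the mutant ones. At ZT14 in SD alone, WT stood at 109 to 124 TPM for ELF3-1, 70.3 to 72.3 for ELF3-2 and 73.5 to 89.2 for PHYB. Each was above every kept library of its mutant. LUX stood at 46.7 to 55.7 in lux and at 64.9 to 75.2 in WT at that time. The labels were not tested by transcript level. A root marker (Os02g0662000, RCc3) was at 0 TPM in every WT, elf3-1 elf3-2 and phyB library kept, although the labels say whole plants, and a shoot meristem marker (Os03g0727000, OSH1) reached at most 0.034 TPM there. In lux both were present, at 162 to 200 TPM and 5.95 to 8.13 TPM.

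In WT the 150 genes were lower with each time of the day up to ZT10 at the median, and higher again late in the night. Their dawn means ran from 10.2 to 1007 TPM in LD (median 93.6) and up to 2051 TPM in SD (median 112). As a share of each gene's dawn mean, the median in LD was 57.5% at ZT2, 35.3% at ZT6, 15.0% at ZT10, 12.4% at ZT14 and 32.6% at ZT18. In SD it was 47.7%, 21.6%, 6.51%, 17.4% and 35.4% at the same times. The lowest mean fell at ZT10 for 123 genes in SD, which is the onset of darkness there, while in LD the lows were divided between ZT10 (66 genes) and ZT14 (71 genes), the latter being the onset of darkness in LD. For 62 genes the low was at ZT14 in LD and at ZT10 in SD. The swing was larger in SD for 123 of the 150, with a median of 3.70 against 2.97 on the log2 scale.

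**Figure D1:**
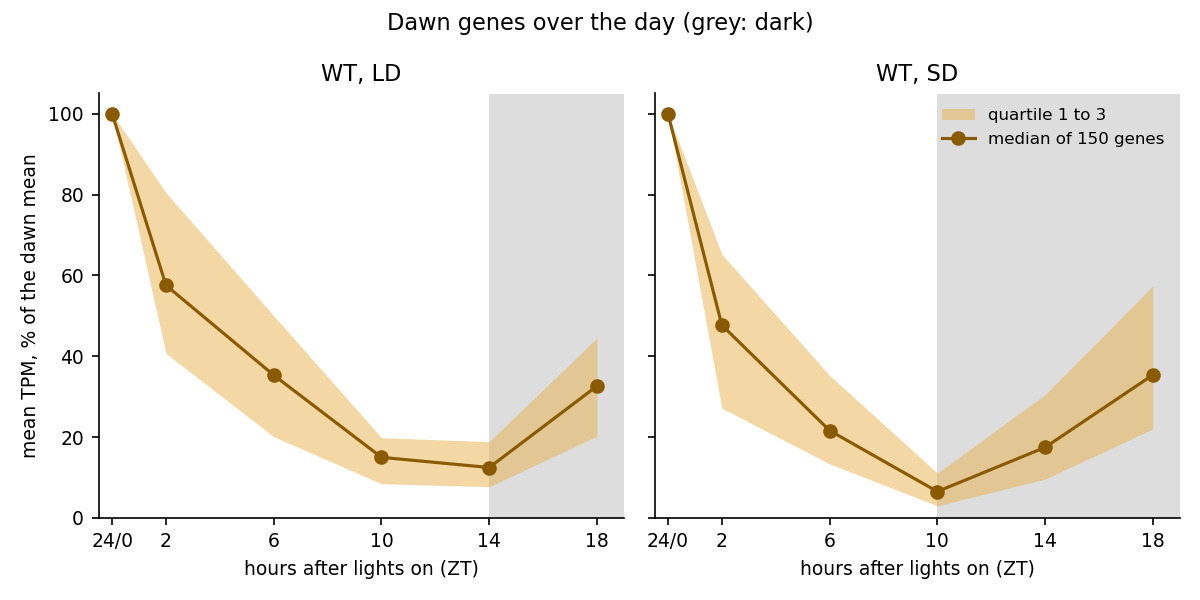
Level of the 150 genes in WT over the day (horizontal axis, hours after lights on) as a percentage of each gene's own dawn mean TPM (vertical axis), in LD (left) and SD (right), with the line at the median, the band between the lower and upper quartiles and the dark period in grey. The median is lowest at ZT14 in LD (12.4%) and at ZT10 in SD (6.51%). Dawn is 100% for every gene because the rule chose genes that are highest there.

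The gene with the largest swing was Os02g0685200, at 465 and 452 TPM in the LD dawn libraries and 329 and 358 TPM in SD, against 1.00 and 0.978 TPM at ZT10 in LD and 0.317 and 0.814 TPM in SD. Levels above 400 TPM at dawn in the LD libraries thus met levels near 1 TPM 10 h into the day. Os12g0512100, second by swing, stood at 479 and 454 TPM at dawn in LD and at 2.33 and 2.97 TPM at ZT14. The members differed in how early they returned. At ZT18 in SD, Os02g0815700 had already reached 129, 138 and 121 TPM, close to its dawn libraries at 137 and 144 TPM, and Os10g0565200 stood at 84.4, 87.6 and 100 TPM against 88.6 and 101 TPM. Os01g0264000 was still at 16.8, 16.3 and 17.3 TPM at that time, far under its dawn libraries at 408 and 430 TPM. Over all members, 47 had reached at least 50% of their dawn mean by ZT18 in SD and 103 had not.

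Summed over the members, the 150 genes made up 2.35 to 2.38% of all TPM at dawn in LD and 3.24 to 3.29% in SD. At ZT10 the sums were 0.363 to 0.375% and 0.263 to 0.270%, the lowest of any SD group. The members lie on all 12 chromosomes, from 4 on chromosome 7 to 24 on chromosome 1. 20 of them form 8 runs of neighbouring identifiers, among them Os01g0872900, Os01g0873000, Os01g0873100 and Os01g0873300, and Os04g0635000, Os04g0635100, Os04g0635400 and Os04g0635500. Whether the counting divides reads between such neighbours is not given in the sources used here, so values within a run are uncertain and are not separate observations. Of 11 genes of the clock and the Evening Complex taken from a list by identifier, which is not the whole clock, 0 were members. Except for ELF3-1, the listed genes were highest in WT between ZT6 and ZT18, so the rule could not take them. ELF3-1 was highest at ZT24 in both day lengths but was not among the 150. The count therefore does not show whether the members include other clock genes.

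**Figure D2:**
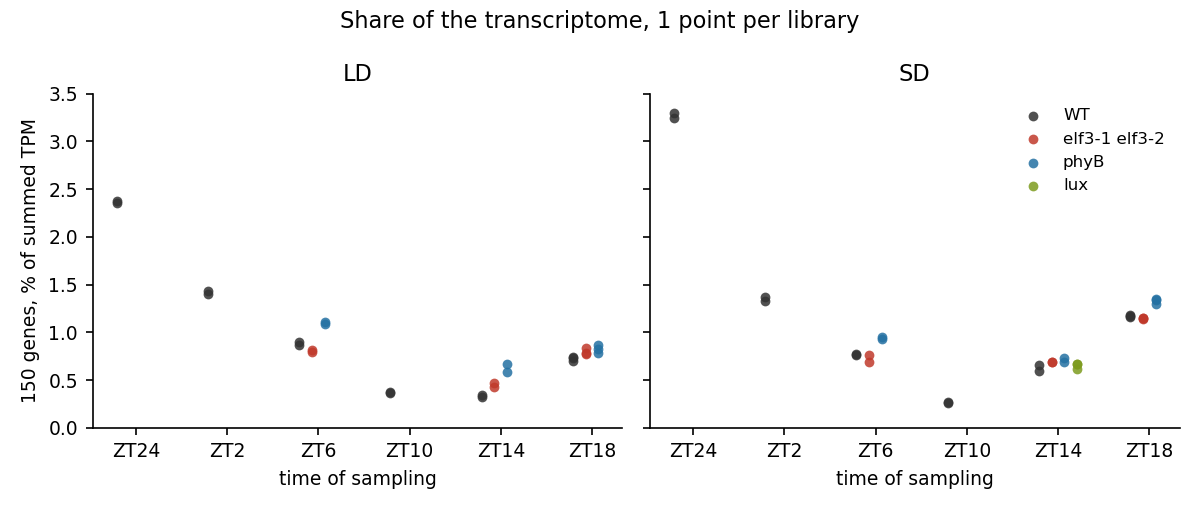
Summed TPM of the 150 genes as a percentage of all TPM (vertical axis), 1 point per library kept, by time of sampling (horizontal axis), in LD (left) and SD (right), coloured by genotype. WT falls from 2.35 to 2.38% at dawn to 0.363 to 0.375% at ZT10 in LD, and from 3.24 to 3.29% to 0.263 to 0.270% in SD. Mutants were sampled at 3 times and lux at 1.

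In the libraries kept, many of these genes differed between LD and SD in WT, and the more common direction was not the same at each time. The rule treats LD and SD alike, but the libraries are the same ones, and it required 10 TPM at dawn in both. The lows that the rule used fell mostly at ZT10 in SD and at ZT10 or ZT14 in LD, so these differences are not independent of it. At ZT24, 81 members differed between LD and SD with an adjusted p under 0.05 (edgeR quasi-likelihood test, used throughout), against 33.8% of all 28905 genes tested. 11 were higher in LD and 70 lower (19.2% and 14.6% of all genes), and the median log2 fold change was -0.42 over the members and 0.06 over all genes. With another scaling (relative log expression) the median over all genes was 0. That scaling moved the higher share of all genes that passed from 56.8% to 48.4%, and of the members that passed from 13.6% to 11.9%. In the fit of all 74 libraries 14 passed, all lower in LD. At ZT2 64 passed (29.9% of all genes), 32 in each direction (14.4% and 15.5% of all genes). At ZT6 52 passed (19.8% of all genes), 34 higher and 18 lower (8.29% and 11.5% of all genes), and this count was 29 without SD replicate 2 and 34 without LD replicate 2. At ZT2 and ZT6 0 passed with all 74 libraries.

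At ZT10, when SD plants entered darkness and LD plants had 4 h of light left, 62 of the 64 members that passed were higher in LD (16.6% of all genes passed, 6.33% as higher and 10.3% as lower), with a median of 0.61 over the members and 0 over all genes. At ZT14, 4 h into the SD night and at the end of the LD day, 84 of 95 were lower in LD (41.0% of all genes passed, 20.6% as higher and 20.5% as lower), with a median of -0.87. At ZT18, 104 of 116 were lower in LD (35.3% of all genes passed, 17.6% as higher and 17.7% as lower), with a median of -0.77. From all 74 libraries the counts were 20 (19 higher), 51 (41 lower) and 43 (40 lower). 38 members were higher in LD at ZT10 and lower at both ZT14 and ZT18 (0.82% of all genes), but 1 member (0.00692% of all genes) was so with all 74 libraries. 45 were lower in LD at ZT14, ZT18 and ZT24 (5.05% of all genes), and 2 (1.36% of all genes) with all 74 libraries. 9 passed at all 6 times (1.91% of all genes) and 7 at none (29.5% of all genes). With all 74 libraries 0 members passed at all 6 times (0% of all genes) and 61 at none (59.9% of all genes). The rule used these libraries, so nothing is read from the shares.

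**Figure D3:**
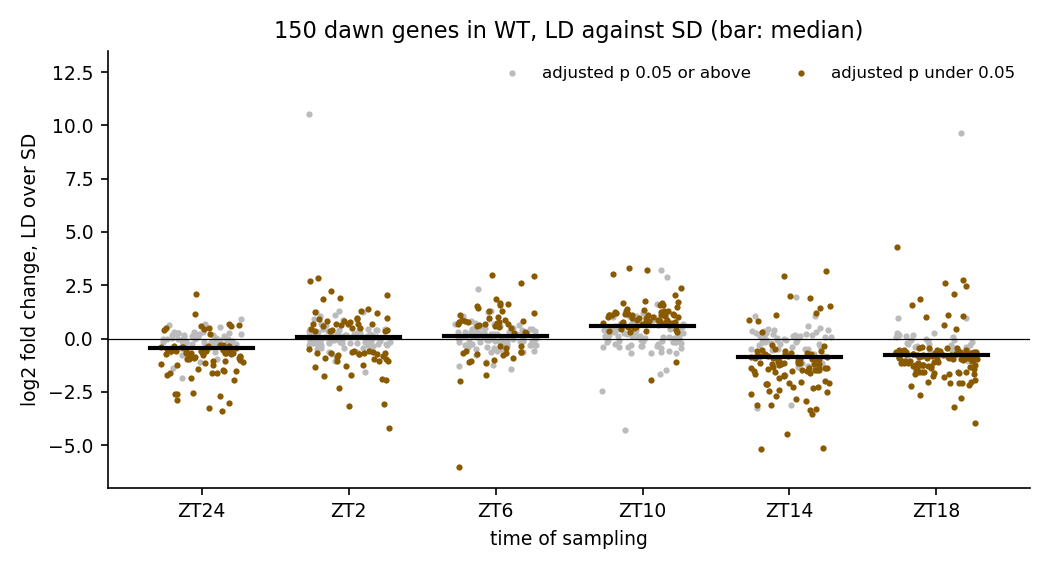
Log2 fold change of LD over SD in WT (vertical axis) for each of the 150 genes at 6 times (horizontal axis), brown where the adjusted p was under 0.05 and grey otherwise, with a black bar at the median of the 150. The medians are -0.42 at ZT24, 0.06 at ZT2, 0.12 at ZT6, 0.61 at ZT10, -0.87 at ZT14 and -0.77 at ZT18. The fitted values furthest from 0 have no exact size.

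The members with the largest dawn difference were Os03g0133300 and Os04g0583200, both higher in SD. Os03g0133300 stood at 45.8 and 38.9 TPM at dawn in LD and at 424 and 395 TPM in SD, a log2 fold change of -3.38 (standard error 0.18, adjusted p = 3.66e-17). Os04g0583200 stood at 23.1 and 23.0 TPM in LD and at 216 and 198 TPM in SD (-3.27, standard error 0.19, adjusted p = 3.02e-16). The LD and SD libraries of either gene do not overlap, and both passed with all 74 libraries too. Over the members, the SD dawn mean was at least 4 times the LD one for 8 genes and at least 2 times for 24, and the LD mean at least 2 times the SD one for 3. Os03g0797300 went the other way, at 101 and 118 TPM in LD against 26.8 and 21.0 TPM in SD (2.09, standard error 0.26, adjusted p = 4.92e-08). Its difference at ZT2 was of the same direction, with 111 and 90.5 TPM in LD and 14.0 and 15.0 TPM in SD (2.72, adjusted p = 7.71e-10). Neither passed with all 74 libraries (adjusted p = 0.814 and 0.651).

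Single members also differed widely between day lengths at ZT10, ZT14 and ZT18. Os05g0586050 was at 0.998 and 0.881 TPM at ZT14 in LD and at 30.7 and 35.7 TPM in SD (-5.14, standard error 0.31, adjusted p = 3.98e-16). It neighbours the member Os05g0585900, so reads may be shared. At ZT18 Os02g0685200 stood at 13.2, 14.4 and 13.3 TPM in LD and at 111, 118 and 121 TPM in SD (-3.21, standard error 0.20, adjusted p = 1.54e-14), whereas at dawn its LD libraries were above its SD ones. Os10g0406300 had the largest difference in favour of LD at ZT14 among those without overlap, with 103 and 98.3 TPM against 11.1 and 10.8 TPM (3.18, standard error 0.26, adjusted p = 1.78e-12). Os02g0572400 was 1 of the 2 members lower in LD at ZT10, at 23.5 and 22.6 TPM against 75.5 and 82.1 TPM (-1.93, standard error 0.12, adjusted p = 2.37e-15). The libraries do not overlap in any of these, and all 4 differences passed with all 74 libraries.

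In the elf3-1 elf3-2 mutant, members differed from WT in both directions at ZT6 and ZT18, while at ZT14 in LD those that passed were all higher. In RNA from plants labelled as whole, fewer cells of a type and less RNA per cell cannot be told apart. The WT libraries of these comparisons helped to choose the members, above all the low values at ZT14 in LD, and the mutant libraries did not. At ZT6 in LD 30 members passed (5.39% of all genes), 12 higher and 18 lower (3.22% and 2.17% of all genes). That count was 17 and 12 without WT replicate 2 or 3, 3 without mutant replicate 2 and 53 without mutant replicate 3, and 3 with all 74 libraries. At ZT6 in SD 87 passed (19.4% of all genes), 25 higher and 62 lower (8.98% and 10.4% of all genes), with a median log2 fold change of -0.33 against 0 over all genes. It was 54 without mutant replicate 2 and 1 with all 74 libraries.

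At ZT14 in LD all 35 members that passed were higher in elf3-1 elf3-2 (4.09% of all genes passed, 2.75% as higher and 1.34% as lower), with a median of 0.41 against -0.01 over all genes. The count was 18 without either WT library, 14 without mutant replicate 2 and 0 with all 74 libraries. At ZT14 in SD 29 passed (5.70% of all genes), 20 higher and 9 lower (3.77% and 1.93% of all genes), with 13 without WT replicate 3, 14 without mutant replicate 2 and 2 with all 74 libraries. At ZT18 the mutant and WT groups hold 3 libraries each, none left out. There 45 members passed in LD (13.9% of all genes), 26 higher and 19 lower (7.77% and 6.10% of all genes). In SD 42 passed (9.39% of all genes), 25 higher and 17 lower (5.79% and 3.60% of all genes). In LD the split was 30 higher and 14 lower with another scaling (relative log expression). Among all genes that passed, that scaling moved the higher share from 56.0% to 68.8%. In the fit of all 74 libraries 3 and 2 passed, and in a fit of the ZT18 libraries alone 46 and 48.

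Os01g0264000 and Os10g0406300 were the members that rose most often among the largest changes in elf3-1 elf3-2. Os01g0264000 stood at 29.9, 26.1 and 16.2 TPM at ZT18 in LD in the mutant and at 4.31, 4.25 and 4.18 TPM in WT (2.47, standard error 0.18, adjusted p = 8.98e-13). At ZT14 in SD it stood at 18.8 and 20.4 TPM against 2.60 and 2.55 TPM (2.89, standard error 0.24, adjusted p = 1.71e-11). Every mutant library was above every WT library, although still below the WT dawn level. Os10g0406300 stood at 92.2, 180 and 121 TPM at ZT18 in SD in the mutant and at 25.9, 19.8 and 24.4 TPM in WT (2.50, standard error 0.20, adjusted p = 6.54e-12). At ZT14 in SD it stood at 84.3 and 71.7 TPM against 11.1 and 10.8 TPM (2.80, standard error 0.26, adjusted p = 7.12e-10). Of these differences, that of Os01g0264000 at ZT14 in SD did not pass with all 74 libraries (adjusted p = 0.204) and the others did.

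Os10g0565200 rose at ZT6 in both day lengths. It stood at 12.2 and 11.3 TPM in elf3-1 elf3-2 in SD and at 0.272 and 0.311 TPM, 15 counts in all, in WT (4.98, standard error 0.57, adjusted p = 5.88e-08). In LD the levels were 20.2 and 10.0 TPM against 2.83 and 2.83 TPM (2.31, adjusted p = 4.37e-05), a difference that did not pass with all 74 libraries (adjusted p = 0.322). At dawn in WT this gene reached 115 and 138 TPM in LD, so the mutant at midday lay between the WT midday and dawn levels. Among the members that fell, Os08g0200600 stood at 4.004 and 12.6 TPM at ZT6 in SD against 32.7 and 34.5 TPM in WT (-2.20, standard error 0.27, adjusted p = 2.85e-07). Os02g0685200 fell at ZT18 in SD, to 62.8, 25.4 and 42.4 TPM from 111, 118 and 121 TPM (-1.41, standard error 0.18, adjusted p = 6.74e-07). In LD at ZT18 it stood at 13.4, 12.5 and 16.1 TPM in the mutant and 13.2, 14.4 and 13.3 TPM in WT, which overlap. Neither fall passed with all 74 libraries (adjusted p = 0.644 and 0.664).

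Over the 6 conditions, 34 members passed in none in elf3-1 elf3-2 (64.8% of all genes). Where they passed, 36 were only higher (16.6% of all genes), 44 only lower (15.4% of all genes) and 36 went both ways (3.18% of all genes). With all 74 libraries 143 passed in none (95.2% of all genes). There 5 were only higher (4.16% of all genes), 2 only lower (0.664%) and 0 went both ways (0%).

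In phyB the members' differences from WT were mostly rises at ZT14 in LD and mostly falls at ZT14 in SD. The change of that difference with day length was not tested at this time. At ZT14 in LD 96 passed (24.6% of all genes), 79 higher and 17 lower (12.4% and 12.2% of all genes), with a median of 0.64 against -0.02 over all genes. In SD at the same time 83 passed (28.2% of all genes), but 29 were higher and 54 lower (13.8% and 14.4% of all genes), with a median of -0.24. That SD count was 54 without phyB replicate 2. The WT libraries at ZT14 in LD hold the low of 71 members, which the rule used, and those at ZT14 in SD the low of 18. In either, 0 members passed with all 74 libraries.

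At ZT6 64 members passed in LD (21.2% of all genes), 40 higher and 24 lower (10.7% and 10.5% of all genes). In SD 62 did (21.4% of all genes), 27 higher and 35 lower (9.69% and 11.7% of all genes). The SD count was 41 without phyB replicate 3, and with all 74 libraries both were 0. At ZT18 92 passed in LD (29.6% of all genes), 43 higher and 49 lower (14.5% and 15.1% of all genes). In SD 67 did (21.9% of all genes), 37 higher and 30 lower (10.3% and 11.5% of all genes). The ZT18 counts with all 74 libraries were 22 and 6, and in the ZT18 libraries alone they were 97 and 68. Over the 6 conditions 13 members passed in none (42.2% of all genes) and 14 in all 6 (3.25% of all genes). 55 were only higher (24.3% of all genes), 37 only lower (25.2% of all genes) and 45 went both ways (8.21% of all genes). With all 74 libraries 126 passed in none (92.3% of all genes) and 0 in all 6 (0%). There 9 were only higher (4.25% of all genes), 15 only lower (3.44%) and 0 went both ways (0.00692%).

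**Figure D4:**
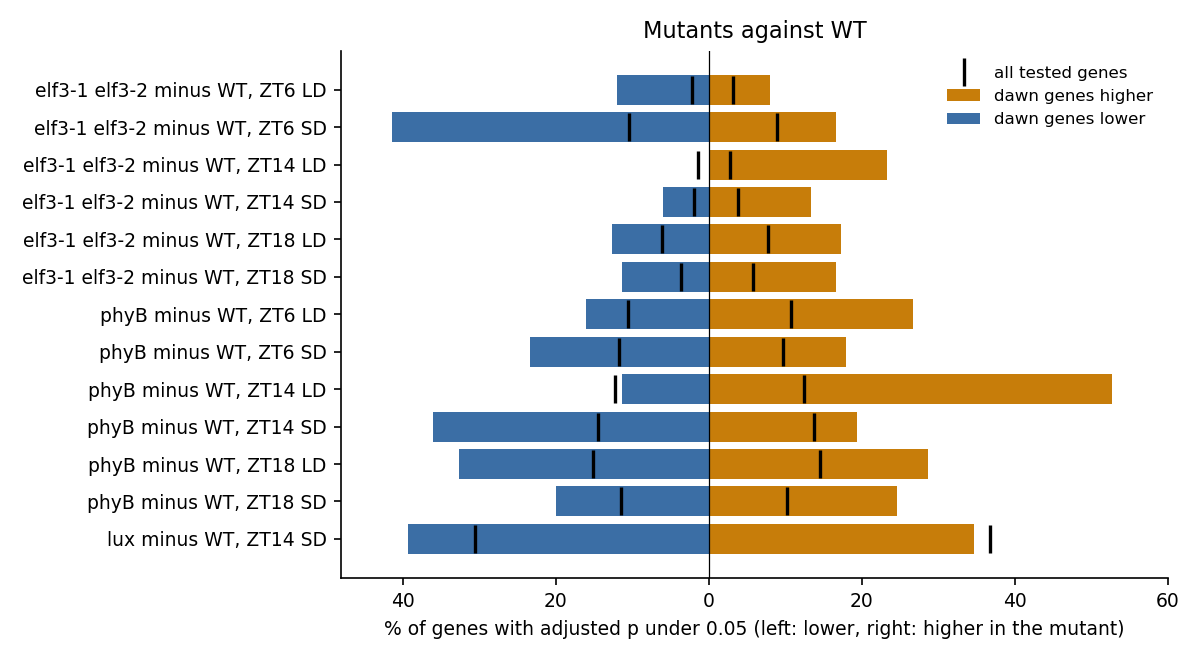
Percentage of the 150 genes that were higher (right, orange) or lower (left, blue) in each mutant than in WT with an adjusted p under 0.05, for 13 comparisons, with black ticks at the percentage of all 28905 tested genes in the same direction. In elf3-1 elf3-2 at ZT14 in LD all 35 genes that passed are higher, and in phyB at the same point 79 are higher and 17 lower. The WT libraries of these comparisons were used to choose the genes.

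Os02g0460200 had the largest rise in phyB at all 6 points among members that passed without overlap. It belongs, like Os04g0340300, to the genes of the phyB scale by which libraries at ZT6 and ZT14 were placed, so that its differences at those times are in part set by that choice. It stood at 1364 and 1160 TPM at ZT6 in LD in phyB and at 32.8 and 42.2 TPM in WT (5.14, standard error 0.16, adjusted p = 2.62e-24). At ZT18 in SD it stood at 890, 823 and 875 TPM against 37.5, 41.0 and 38.0 TPM (4.44, standard error 0.13, adjusted p = 1.23e-25). Its fold changes at the other 4 points were 4.51 to 6.15, and no phyB library kept was below 517 TPM, above the 139 and 159 TPM of the WT dawn libraries in SD. Os03g0797300 rose at ZT6 in phyB to 294 and 313 TPM from 27.4 and 27.9 TPM in LD (3.52, standard error 0.26, adjusted p = 4.48e-13). In SD it rose to 126 and 147 TPM from 6.89 and 14.6 TPM (3.63, adjusted p = 1.9e-12). With all 74 libraries the ZT6 changes of both genes were under 1.1 on the log2 scale and did not pass (adjusted p from 0.976 to 1), and that of Os02g0460200 at ZT18 in SD missed the threshold (0.078).

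Os04g0340300 was nearly absent from phyB. At ZT18 in SD it stood at 0.404, 0.267 and 0.300 TPM in phyB and at 91.3, 88.3 and 75.7 TPM in WT (-8.02, standard error 0.45, adjusted p = 5.26e-16). At ZT18 in LD it stood at 0.288, 0.298 and 0.278 TPM against 19.7, 14.1 and 10.7 TPM (-5.69, standard error 0.51, adjusted p = 7.71e-11). No phyB library kept was above 0.978 TPM, while elf3-1 elf3-2 libraries stood at 10.8 to 178 TPM. At ZT6 and ZT14 its fold changes with all 74 libraries were above 0, from 0.31 to 1.55, and did not pass, so that these directions rest on leaving those libraries out, and at ZT18 in LD the adjusted p was then 0.0681. Os10g0109600 had no count in the phyB libraries at ZT6 in SD and stood at 7.32 and 10.2 TPM in WT, at least 79.3-fold lower against 3 counts per library (adjusted p = 0.000325, and 0.976 with all 74 libraries). The neighbours Os01g0872900 and Os01g0873000 were low together in phyB. At ZT18 in SD Os01g0872900 stood at 0.414, 0.147 and 0.254 TPM against 4.02, 4.33 and 3.76 TPM (-3.80, standard error 0.30, adjusted p = 3.3e-13), and Os01g0873000 at 0.860, 1.06 and 1.70 TPM against 14.2, 14.8 and 14.0 TPM.

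**Figure D5:**
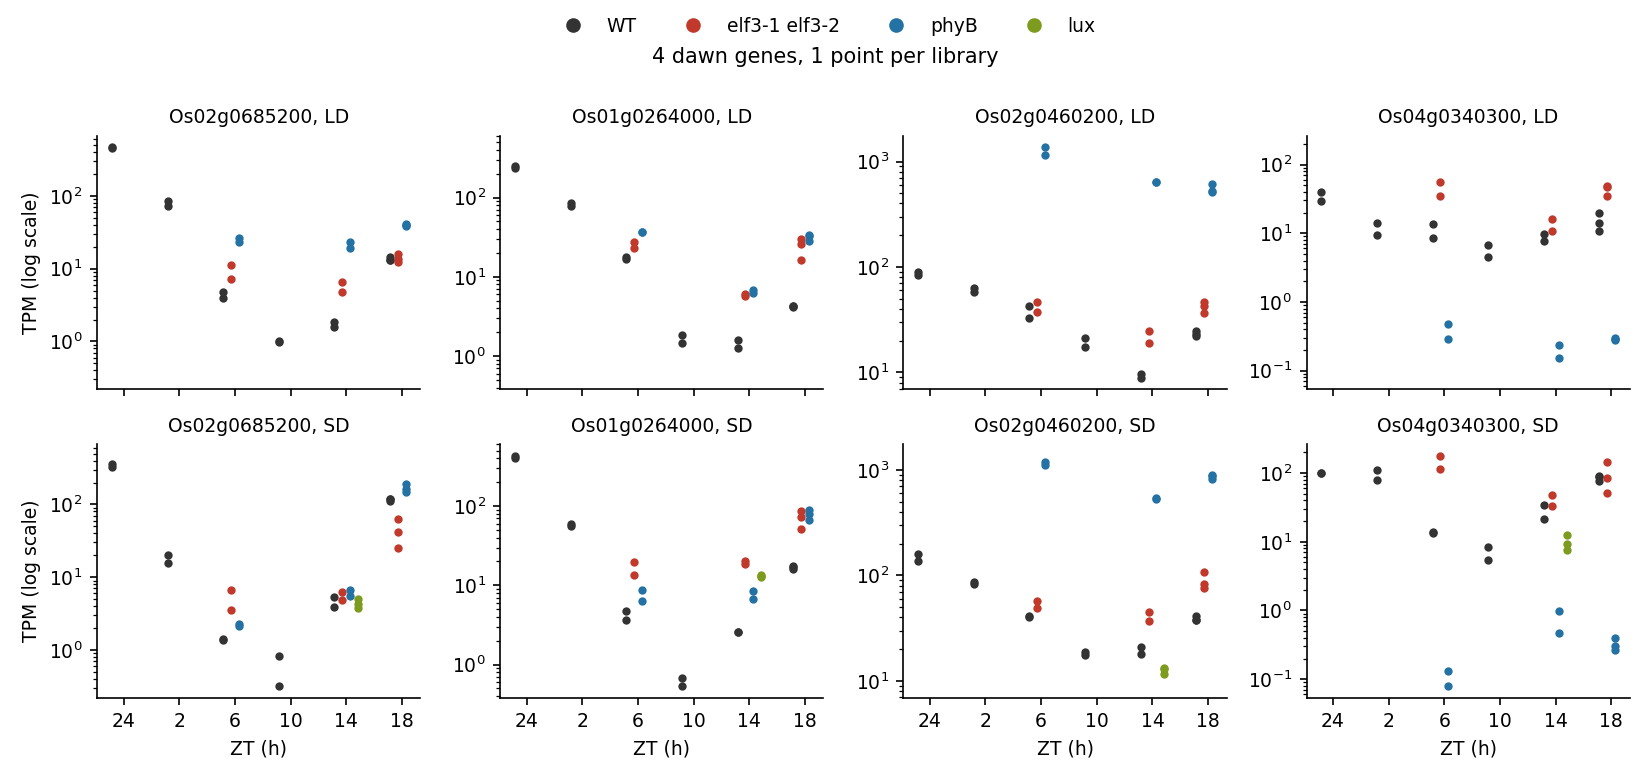
TPM on a log scale (vertical axis) of Os02g0685200, Os01g0264000, Os02g0460200 and Os04g0340300 by time of sampling (horizontal axis), 1 point per library kept, in LD (top) and SD (bottom), coloured by genotype. In phyB, Os02g0460200 is above every WT library and Os04g0340300 is below every WT library at ZT6, ZT14 and ZT18. Os01g0264000 at ZT14 and ZT18 is above WT in every elf3-1 elf3-2 and phyB library.

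With all 150 members summed, their share of TPM was higher in phyB than in WT at each matched time and day length. At ZT14 in LD it was 0.581 to 0.664% in phyB, 0.424 to 0.467% in elf3-1 elf3-2 and 0.321 to 0.346% in WT. At ZT6 in LD it was 1.09 to 1.11% in phyB and 0.866 to 0.901% in WT. Os02g0460200 alone carried part of this: without it the ZT6 LD shares were 0.970% in both phyB libraries and 0.862 to 0.898% in WT, and the ZT14 LD shares 0.517 to 0.599% and 0.320 to 0.345%. Without it the ZT6 SD shares were 0.811 to 0.841% in phyB and 0.761 to 0.773% in WT, and the ZT18 SD shares 1.21 to 1.27% and 1.16 to 1.18%, which do not overlap. The phyB and WT libraries did overlap without it at ZT14 in SD, at 0.630 to 0.682% and 0.594 to 0.658%, and at ZT18 in LD, at 0.731 to 0.812% and 0.699 to 0.736%.

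At ZT14 in SD 111 members differed between lux and WT, 52 higher and 59 lower, but 67.3% of all genes tested did so too, 52 and 59 being read against 36.8% and 30.5% of all genes higher and lower. The root and meristem markers given above were present in lux alone, and their part in these differences was not tested. Both leaf markers differed as well: Os12g0274700 (Rubisco small subunit) stood at 975 to 1369 TPM in lux and 5391 to 5840 TPM in WT at ZT14 in SD, and Os09g0346500 (a light-harvesting protein) at 514 to 614 TPM and 3.51 to 23.3 TPM. The median log2 fold change was -0.05 over the members and 0.08 over all genes, and the latter was 0.15 with the other scaling. Of the members, 79 passed with all 74 libraries.

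Neighbouring members rose together in lux. Os04g0635000 stood at 15.9, 12.4 and 12.4 TPM in lux and at 0.173 and 0.400 TPM, 9 counts in all, in WT (5.04, standard error 0.43, adjusted p = 7.2e-14). Os04g0635100 stood at 67.7, 67.6 and 62.1 TPM against 1.78 and 1.78 TPM (4.92, standard error 0.51, adjusted p = 1.07e-10). The latter exceeded its WT dawn libraries, at 17.6 and 21.5 TPM in LD. Os05g0586050 fell to 3.28, 3.24 and 2.26 TPM from 30.7 and 35.7 TPM (-3.75, standard error 0.22, adjusted p = 2.47e-17). The lux and WT libraries do not overlap for any of these, and all of them passed with all 74 libraries.

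The mutants were next compared without WT, in libraries that had no part in choosing the genes. At ZT18 in LD 89 members differed between elf3-1 elf3-2 and phyB (35.2% of all genes), 53 higher and 36 lower in elf3-1 elf3-2 (17.5% and 17.7% of all genes). In SD 96 did (31.6% of all genes), 45 higher and 51 lower (16.5% and 15.1% of all genes). Counts from all 74 libraries were 31 and 23, and in the ZT18 libraries alone 85 and 99. The medians were 0.09 in LD and -0.14 in SD, against -0.03 and 0 over all genes.

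Single members differed far more. Os04g0340300 stood at 35.02, 47.8 and 47.9 TPM at ZT18 in LD in elf3-1 elf3-2, against the phyB values near 0.3 TPM above (7.24, standard error 0.47, adjusted p = 1.39e-14). Os07g0529000 stood at 186, 103 and 117 TPM against 2.59, 0.566 and 2.16 TPM (6.33, standard error 0.75, adjusted p = 3e-08). WT lay between them, at 88.0, 62.8 and 78.0 TPM. Os06g0652300 was lower in elf3-1 elf3-2, at 1.16, 0.948 and 0.666 TPM against 7.10, 6.37 and 6.32 TPM (-2.80, standard error 0.37, adjusted p = 1.52e-07). Os02g0460200 was also lower in elf3-1 elf3-2 than in phyB, at 46.6, 43.0 and 36.9 TPM against 613, 520 and 517 TPM (-3.68, standard error 0.12, adjusted p = 1.13e-23). The WT mean there was 1.70 TPM for Os06g0652300, between the mutants. For Os02g0460200 it was 23.3 TPM, below both mutants. Of these 4 differences, that of Os02g0460200 missed the threshold with all 74 libraries (adjusted p = 0.062) and the others passed.

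In the libraries kept, most members also varied over time within the mutants. The members were chosen for at least 10 TPM at dawn and a large swing in WT. All genes tested were not, so their shares are not a like background. Over ZT6, ZT14 and ZT18, 130 members differed in elf3-1 elf3-2 in LD (43.9% of all genes) and 128 in SD (44.4% of all genes). In phyB 127 did in LD (47.7% of all genes) and 126 in SD (49.0% of all genes). With all 74 libraries the counts were 48, 86, 98 and 95 in the same order. Of the members that passed, 120 were higher at ZT18 than at ZT14 in elf3-1 elf3-2 in LD (21.9% of all genes) and 127 in SD (23% of all genes). In phyB 90 were in LD (24.5% of all genes) and 113 in SD (24.3% of all genes). These counts were 43, 86, 74 and 85 with all 74 libraries (8.29%, 14.8%, 14.5% and 17.5% of all genes). The median log2 ratio of ZT18 over ZT14 over all 150 members, on CPM plus 0.1, was 1.18 in WT, 0.98 in elf3-1 elf3-2 and 0.47 in phyB in LD, and 0.98, 0.90 and 1.09 in SD. The WT values of this ratio belong to the libraries that chose the genes, and the differences between genotypes in it were not tested.

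Whether a mutant's effect at ZT18 differed between day lengths was tested directly, as the difference from WT in LD minus that in SD. For elf3-1 elf3-2 5 members passed (1.33% of all genes), 3 higher and 2 lower (0.692% and 0.633% of all genes). For phyB 17 did (2.42% of all genes), 6 higher and 11 lower (1.01% and 1.40% of all genes). Leaving out 1 library gave 2 to 10 and 7 to 17, the lowest without WT SD replicate 1, WT LD replicate 2 or elf3-1 elf3-2 LD replicate 3 and without phyB LD replicate 2. In both, 0 passed with all 74 libraries. The largest of these differences are given with the results set out for a closer look.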

How the data were processed

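Per the submitters' processing notes, reads were aligned with HISAT2 and quantified with StringTie on the rice genome build IRGSP-1.0; versions and options are not given in the sources used here. Per the labels, libraries were strand-specific. The authors deposited whole-number counts per gene and TPM per gene, which sum to 984576 to 997073 per library. Of 75 columns 1 was not used because it equals the mean of the other 2 of its group. The WT columns named ZT00 were matched to the ZT24 samples. The members and lists were chosen with earlier results of these data known. TPM chose and described the members. The tests on counts used edgeR, version 4.0.16, under R 4.3.3 (TMM scaling, filterByExpr, quasi-likelihood fit of 57 libraries in 25 groups, 27 comparisons), with Benjamini-Hochberg adjustment over the 28905 genes tested; 8944 genes were filtered out, and all 150 members were tested. The threshold was an adjusted p of 0.05. Alternatives were all 74 libraries, RLE scaling, no filter, DESeq2 1.42.0, a replicate block, leaving out each library and, added after seeing the data, the ZT18 libraries alone. The genes given with values were drawn from the 10 of largest swing, those at its limit and a choice per comparison. That choice took the 2 in each direction with the largest fold change among those that passed without overlap between libraries. Overlap was not a condition for the 2 changes with day length. Not all genes so drawn are printed, and no fixed rule set which of them are. This choice replaces a rule that needed gene products, which the tables used here do not pair with these identifiers. 1 gene that the choice of members leaves out by identifier is not reported here.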

Additional observations from a re-analysis of the deposited data

Results flagged for a closer look

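The change of a mutant's effect between LD and SD at ZT18 was tested as that difference itself (edgeR, adjusted over all genes). It passed for 5 members in elf3-1 elf3-2 and 17 in phyB. The 8 given here are the 2 with the largest fold change in each direction for each mutant. They were picked by this same test, so their number is not a result. For elf3-1 elf3-2, Os02g0685200 had a difference of 1.42 on the log2 scale (adjusted p = 0.00464), with 3 of 3 mutant libraries below all WT libraries in SD and overlapping libraries in LD. Os10g0486100 had one of 2.23 (adjusted p = 0.0241): it stood at 24.3, 25.9 and 62.8 TPM in the mutant against 71.5, 72.8 and 74.4 TPM in WT in SD, and at 54.9, 56.6 and 82.5 TPM against 38.5, 19.1 and 19.7 TPM in LD. The WT and mutant libraries of Os10g0486100 therefore do not overlap in either day length, with the mutant lower in SD and higher in LD. Os11g0444700 had a difference of -0.68 (adjusted p = 0.0215) and Os02g0139700 one of -0.40 (adjusted p = 0.0155).

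For phyB, Os05g0589400 had a difference of 1.36 (adjusted p = 0.00149): it stood at 9.49, 10.6 and 7.55 TPM in phyB against 31.1, 28.4 and 38.4 TPM in WT in SD, and at 12.6, 17.3 and 14.5 TPM against 19.6, 19.9 and 21.3 TPM in LD. All 3 phyB libraries were below all WT libraries in both. Os04g0635000 had a difference of 2.21 (adjusted p = 0.0232), Os03g0363100 one of -3.90 (adjusted p = 0.0271) and Os08g0168000 one of -6.24 (adjusted p = 0.0107). In LD Os04g0635000 stood at 4.50, 5.24 and 5.34 TPM in phyB against 0.433, 0.158 and 0.739 TPM, 16 counts in all, in WT. In SD it stood at 8.19, 4.28 and 7.965 TPM against 4.41, 1.35 and 2.93 TPM, which overlap. In Os08g0168000 1 phyB library in SD stood at 15.4 TPM and the others at 0.278 and 1.36 TPM, and without it the difference was -3.52 (adjusted p = 0.42).

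Os02g0685200 and Os05g0589400 passed without each ZT18 library in turn and in the ZT18 libraries alone. The other 6 missed the threshold in the ZT18 libraries alone (adjusted p from 0.0514 to 0.0977) and without at least 1 library each: Os10g0486100 without any of 6 libraries (0.0501 to 0.0863), Os11g0444700 without any of 3 (0.0687 to 0.0981), Os02g0139700 without any of 3 (0.0538 to 0.0756), Os04g0635000 without any of 3 (0.0545 to 0.133), Os03g0363100 without any of 5 (0.0519 to 0.304) and Os08g0168000 without either of 2 (0.0537 and 0.42). The difference of Os03g0363100 was -2.90 without phyB SD replicate 3 (0.304). With all 74 libraries none of the 8 passed (adjusted p from 0.188 to 1).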

How the results depend on the processing

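RLE scaling and no filter on low counts kept all 27 counts of members within 1.5 times, and DESeq2 all but 2. DESeq2 gave 9 and 28 members for the change of the elf3-1 elf3-2 and phyB effects with day length, and the ZT18 libraries alone, added after seeing the data, gave 3 and 10. Same-numbered libraries at ZT18 correlated at -0.14 to 0.286 over 18 pairs, 9 of them over 0.1. All 3 pairs were over 0.1 for elf3-1 elf3-2 with phyB in LD alone (0.181 to 0.24), where a replicate block gave 96 members against 89. In the other 5 pairs of groups not all 3 were over 0.1. These correlations do not show whether same-numbered libraries belong together. A replicate block gave 47 members for elf3-1 elf3-2 at ZT6 in LD and 9 and 29 for the 2 changes with day length, and kept all 90 named calls.

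With all 74 libraries, LD against SD in WT gave 14 at ZT24, 0 at ZT2, 0 at ZT6, 20 at ZT10, 51 at ZT14 and 43 at ZT18. For elf3-1 elf3-2 against WT it gave 3 (LD) and 1 (SD) at ZT6, 0 and 2 at ZT14 and 3 and 2 at ZT18. For phyB against WT it gave 0 and 0 at ZT6, 0 and 0 at ZT14 and 22 and 6 at ZT18. Between the mutants it gave 31 and 23, for time within elf3-1 elf3-2 in LD 48, and for both changes with day length 0. Of 90 named differences 55 missed the threshold and 5 turned, all in phyB: Os03g0363100 at ZT6 in LD (0.19) and Os04g0340300 at ZT6 in LD (0.33) and SD (1.55) and at ZT14 in LD (0.31) and SD (0.87). Whether the labels or the libraries are at fault was not tested.

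Leaving out 1 library gave 29 to 39 members for WT at ZT6, and for elf3-1 elf3-2 3 to 53 at ZT6 in LD, 54 to 88 at ZT6 in SD, 14 to 35 at ZT14 in LD and 13 to 23 at ZT14 in SD. For phyB it gave 41 to 53 at ZT6 in SD and 54 to 66 at ZT14 in SD, and for the changes with day length 2 to 10 and 7 to 17. Of the 150 members, the rule kept 107 with all 36 WT libraries, 143 with a pseudocount of 0.1, 108 on CPM, 127 with a minimum of 20 TPM, and 136 to 150 without 1 library. With 2 libraries in most groups, a group left with 1 is assumed to vary like the others.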
